A study of Mus musculus with 6 samples.

Results

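Phosphofructokinase and fructose-bisphosphatase catalyse the opposed reactions between fructose 6-phosphate and fructose 1,6-bisphosphate, and the Pfkfb enzymes make and break the regulator of both. The 8 mouse genes described here are the 3 phosphofructokinase isozymes (Pfkm, Pfkl and Pfkp), the 4 Pfkfb enzymes (Pfkfb1, Pfkfb2, Pfkfb3 and Pfkfb4) and the muscle fructose-bisphosphatase Fbp2. They were taken by symbol, each was found on 1 row of the expression table, and they are 8 of its 22481 gene symbols. RNA was measured in quadriceps of mice that lack Fbxw7, a substrate-recognition subunit of an SCF ubiquitin ligase, in muscle, and of control mice. The knockout group, MKO, carried MCK-Cre+/- and Fbxw7 flox/flox and had 3 libraries. The control group, COM, carried Fbxw7 flox/flox without the Cre transgene and had 3 libraries. Both groups thus share the floxed allele, and an effect of Cre itself and of the loss of Fbxw7 cannot be told apart. The muscle creatine kinase promoter that drives Cre is active in differentiated muscle fibres, so the other cells of the tissue keep the gene. The labels give no age, sex or feeding state and do not say whether each library came from a separate mouse. The p-values therefore measure the spread between these libraries, which may be technical.

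Phosphofructokinase commits fructose 6-phosphate to glycolysis, and the muscle isozyme Pfkm is the form by which skeletal muscle is best known. Each Pfkfb protein holds a kinase that makes fructose 2,6-bisphosphate and a phosphatase that removes it. That sugar phosphate activates phosphofructokinase and inhibits fructose-bisphosphatase, so the balance of Pfkfb forms bears on both directions. Pfkfb1 is the form of liver and muscle, Pfkfb2 that of heart, Pfkfb3 an inducible form in which the kinase predominates, and Pfkfb4 a form first described in testis. Fbp2 runs the reverse step in muscle, where lactate can be turned back towards glycogen.

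The loci lie on 7 chromosomes in the mm10 annotation of GENCODE M21. Pfkm is at chr15:98092589-98132451 on the plus strand, Pfkl at chr10:77986947-78010083 on the minus strand and Pfkp at chr13:6579768-6648777 on the minus strand. Pfkfb1 is at chrX:150588229-150643878 (plus), Pfkfb2 at chr1:130689182-130729253 (minus), Pfkfb3 at chr2:11471433-11554077 (minus) and Pfkfb4 at chr9:108991778-109032228 (plus). Fbp2 is at chr13:62836877-62858422 (minus), so that Pfkp and Fbp2 share a chromosome.

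All 8 genes had RefSeq promoter windows, 17 in all, each running from 250 bases before to 50 bases after a start site on GRCm38.p6, the assembly of mm10. The letters CACGTG, the E-box bound by Myc, USF and the circadian activators, stood in 4 of these 17 windows and in 7.15% of all 32851 windows. The 4 windows belong to Fbp2 and Pfkfb3, the genes with the lowest knockout levels relative to control among the 8, to Pfkfb2, which was higher in MKO, and to the most upstream start of Pfkm. They are printed as the windows of these genes that hold CACGTG, and because the genes concerned moved in both directions. Some of the other motifs searched, given below, stood in more of the 17 windows. Capitals mark CACGTG, which reads the same on both strands.
Fbp2, chr13:62858351-62858650, minus strand: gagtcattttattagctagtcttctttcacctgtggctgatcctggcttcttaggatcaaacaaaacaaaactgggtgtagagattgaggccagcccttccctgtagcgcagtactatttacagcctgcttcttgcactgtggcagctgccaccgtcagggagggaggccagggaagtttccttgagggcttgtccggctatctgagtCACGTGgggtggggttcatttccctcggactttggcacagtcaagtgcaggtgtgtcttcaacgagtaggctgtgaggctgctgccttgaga
Pfkfb3, chr2:11502041-11502340, minus strand: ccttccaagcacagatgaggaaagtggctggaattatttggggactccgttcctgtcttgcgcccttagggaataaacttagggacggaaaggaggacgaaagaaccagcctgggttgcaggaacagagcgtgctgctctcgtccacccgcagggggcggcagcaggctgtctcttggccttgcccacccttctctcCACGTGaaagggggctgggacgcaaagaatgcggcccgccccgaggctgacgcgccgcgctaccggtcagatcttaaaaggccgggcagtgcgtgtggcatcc
Pfkfb2, chr1:130715772-130716071, minus strand: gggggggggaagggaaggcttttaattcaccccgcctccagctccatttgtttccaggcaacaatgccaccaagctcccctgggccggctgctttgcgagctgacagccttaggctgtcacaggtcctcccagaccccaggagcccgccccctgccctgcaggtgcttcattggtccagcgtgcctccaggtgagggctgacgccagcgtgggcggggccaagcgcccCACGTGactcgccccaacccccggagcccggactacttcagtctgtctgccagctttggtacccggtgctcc
Pfkm, chr15:98092339-98092638, plus strand: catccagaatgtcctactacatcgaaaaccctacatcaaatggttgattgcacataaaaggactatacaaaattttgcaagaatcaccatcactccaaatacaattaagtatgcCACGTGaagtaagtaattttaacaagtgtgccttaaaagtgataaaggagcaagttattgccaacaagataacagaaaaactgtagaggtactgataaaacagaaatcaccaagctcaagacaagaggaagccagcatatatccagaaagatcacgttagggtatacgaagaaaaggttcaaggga
Counted from the start site, the first letter of the motif lies at -42 in Fbp2, -53 in Pfkfb3, -22 in Pfkfb2 and -136 in Pfkm. The Pfkfb3 window belongs to its downstream start, and the deposited Pfkfb3 locus ends at position 11502101, beside that start. The other windows of Pfkfb2, Pfkfb3 and Pfkm, and every window of Pfkl, Pfkp, Pfkfb1 and Pfkfb4, lacked these letters.

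Other motifs were searched on both strands of the same windows. The hypoxia core ACGTG, which lies inside CACGTG, stood in 7 of the 17 windows and in 19.6% of all windows. Its second form GCGTG stood in 9 of 17, against 32.4% of all. The letters TGACG, part of the site of cyclic AMP response factors, stood in 5 of 17 and in 20.8% of all, whereas the whole site TGACGTCA stood in none of the 17 and in 1.79% of all. The myogenic E-box CAGCTG was found in 3 of 17 windows, of Fbp2, Pfkfb1 and Pfkfb2, against 16.3% of all windows. TATAAA was found in 1 of the 17 and in 13.6% of all, and a match to the MEF2 motif in 1 of the 17 and in 3.19% of all. Both of these stood in the same Pfkfb1 window. These matches describe letters in the windows, and binding was not measured.

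Expression was deposited as FPKM, a fragment count scaled by transcript length and library size, which can be compared between genes. Differences were tested with limma on log2(FPKM + 0.1), with Benjamini-Hochberg adjustment over the 11659 genes that averaged at least 0.5 FPKM, and a gene was called at an adjusted p under 0.05. Log2 changes below are on that scale, MKO over COM. Estimated fragments in genes ranged from 3150443 to 6704228 in the MKO libraries and from 8435731 to 11783852 in the COM libraries, so low genes are less precise in MKO. Over all tested genes the median log2 change was 0.21, and 0.01 after median-of-ratios scaling. Fbxw7 itself stood at 4.02, 3.86 and 3.81 FPKM in MKO, against 6.51, 6.23 and 6.36 FPKM in COM (log2 change -0.69, SE 0.12, limma adjusted p = 0.0028). This value sums the whole gene, of which a floxed allele loses only a part. The fast fibre markers that define this tissue were abundant in both groups.

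All 8 genes passed the filter on low values, and 7 were called between MKO and COM, where 34.6% of all tested genes were. Pfkl and Pfkfb2 rose (24.5% of tested genes rose), and Pfkm, Pfkfb1, Pfkfb3, Pfkfb4 and Fbp2 fell (10.1% of tested genes fell). Over all tested genes 2860 rose and 1177 fell, whereas 1724 were raised and 2018 lowered once libraries were scaled by median-of-ratios. The same 7 had MKO libraries that all lay on one side of the COM libraries, as did 49.8% of tested genes. Ordered by change, Fbp2 was the 23rd and Pfkfb3 the 27th most lowered of the 11659 tested genes, and Pfkm was the 362nd. Pfkfb2 was the 491st and Pfkl the 508th most raised. The 7 calls and their directions held in all 17 alternative settings, which include both other scalings and the omission of each library.

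**Figure D1:**
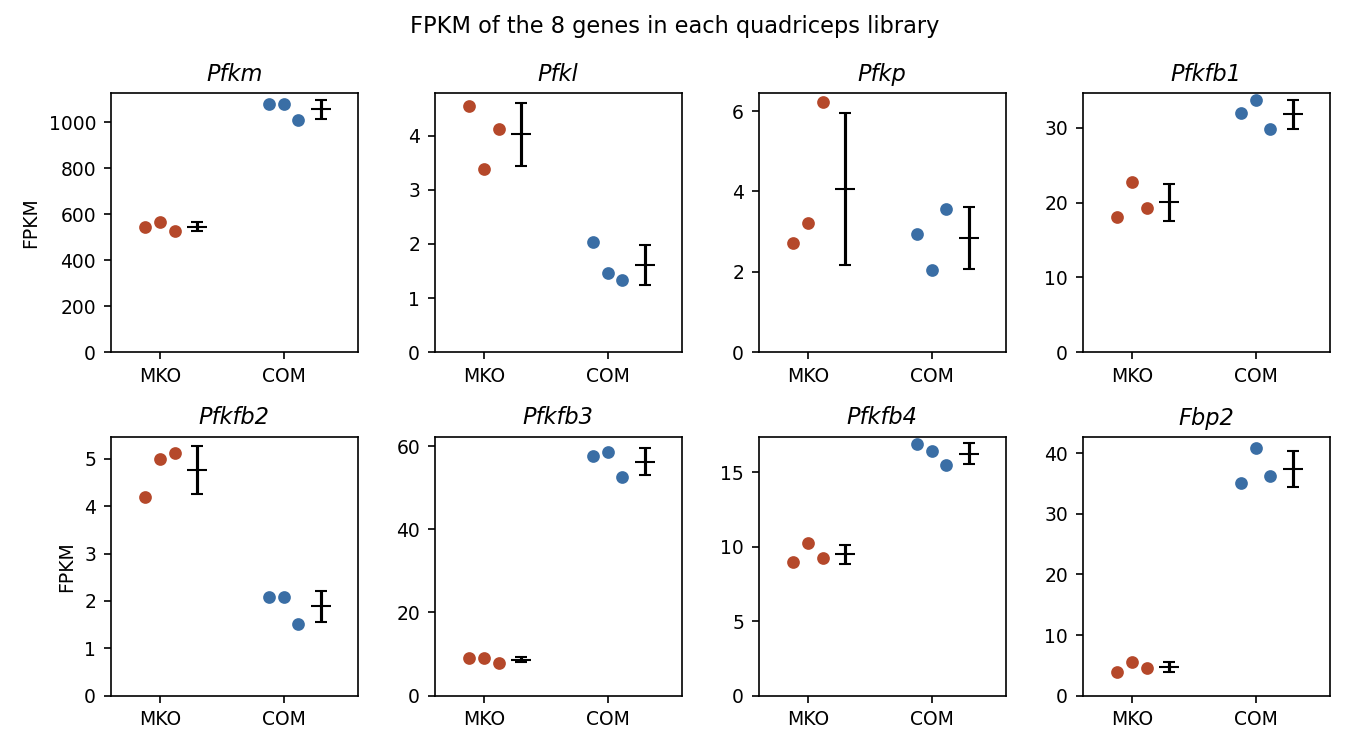
FPKM of the 8 genes, with 1 point per library, MKO left of COM in each panel, and the mean and SD (n = 3 each) as a bar beside the points; every vertical axis starts at 0. The MKO points lie below all COM points for Pfkm, Pfkfb1, Pfkfb3, Pfkfb4 and Fbp2, above them for Pfkl and Pfkfb2, and among them for Pfkp.

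Pfkm, the muscle isozyme, was the most abundant of the 8 genes in both groups. It measured 544, 565 and 526 FPKM in MKO, against 1078, 1082 and 1009 FPKM in COM. The groups were far apart relative to their spread, at 545 ± 19.3 FPKM in MKO and 1056 ± 41.0 FPKM in COM (SD, n = 3 each), so that MKO held 51.6% of the COM level. The log2 change was -0.95 (SE 0.055, limma adjusted p = 9.49e-06), or -1.16 after subtraction of the all-gene median. Between 5956 and 45419 estimated fragments per library lay behind these values. The ratio of scaled count to FPKM was nearly the same in all 6, with a spread of 1.01 between highest and lowest. Exons of Gm26513 overlap those of Pfkm on the same strand over 341 bases. Of the 50-base stretches of Pfkm, 8.83% also occur in Gm26513, so the assignment of reads there is uncertain.

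Pfkl, the liver isozyme, is a minor form in muscle. It measured 4.55, 3.39 and 4.12 FPKM in MKO, against 2.04, 1.45 and 1.33 FPKM in COM. Every MKO library was above every COM library, with means of 4.02 ± 0.587 FPKM in MKO and 1.61 ± 0.376 FPKM in COM (SD, n = 3 each), a 2.50-fold difference. The log2 change was 1.28 (SE 0.21, limma adjusted p = 0.00219), or 1.07 after subtraction of the all-gene median. The lowest estimated number of Pfkl fragments was 51 and the highest 124. For this gene the ratio of scaled count to FPKM ran from 29.6 to 38.5, a spread of 1.30. That spread was wider than in 79.8% of 9128 genes of at least 1 FPKM in every library. On the scaled counts Pfkl was 2.48-fold higher in MKO, again without overlap. Pfkl is also expressed in blood cells, and the leukocyte markers rose in the same libraries. All 10 of the leukocyte markers were called higher in MKO (9 after quantile normalization or median-of-ratios scaling), where 24.5% of all tested genes rose. Their summed level was 138 to 168 FPKM in MKO and 65.9 to 73.9 FPKM in COM. Most of the sum was Cd74, at 107.4 ± 13.8 FPKM in MKO and 60.5 ± 4.10 FPKM in COM (SD, n = 3 each). Of the 10, Cd3e, Cd3g, Cd79a, Cd79b and Ms4a1 averaged 0 to 0.168 FPKM in COM, under the filter of 0.5 FPKM. They were tested only because of their MKO values, so their calls were not open to both directions. The B cell genes Cd79a and Ms4a1 were listed at 0 in all COM libraries, while Cd79a stood at 4.88 to 6.65 FPKM in MKO. The part of these cells in the rise of Pfkl was not tested. In bulk tissue, a change in the number of cells of a type and a change in RNA per cell cannot be told apart.

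Pfkp, the platelet isozyme, did not pass the test. It measured 2.72, 3.22 and 6.23 FPKM in MKO, against 2.94, 2.04 and 3.57 FPKM in COM. The groups overlapped, and MKO library 3 stood apart from the other MKO libraries. The means were 4.06 ± 1.896 FPKM in MKO and 2.85 ± 0.770 FPKM in COM (SD, n = 3 each), and the log2 change was 0.44 (SE 0.32, limma adjusted p = 0.318). Without MKO library 3 the log2 change was 0.09. Only 28 to 116 estimated fragments per library lay behind the gene.

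The FPKM of Pfkp also carries an uncertainty of transcript length. In most genes the deposited scaled count and the FPKM keep a nearly fixed ratio, with a median spread of 1.07 between the highest and lowest library. For Pfkp that ratio was 16.1 scaled counts per FPKM in MKO library 3 and 17.9 in COM library 3, and 24.5 to 28.1 in the other 4 libraries, a spread wider than in 94.2% of 9128 genes of at least 1 FPKM in every library. Exons of Pfkp overlap those of Pitrm1 on the opposite strand over 748 bases, and 15.4% of its 50-base stretches also occur in Pitrm1. Pitrm1, a mitochondrial peptidase, measured 11.2 ± 0.742 FPKM in MKO and 10.7 ± 1.902 FPKM in COM (SD, n = 3 each). The kit marks strand, but whether the counting used strand is not stated in the labels. Of 2 tested platelet markers 0 were called, their list summed to 7.16 to 16.0 FPKM in MKO and 8.04 to 10.96 FPKM in COM, and Gp9 was listed at 0 in every library.

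Summed over the 3 isozymes, phosphofructokinase mRNA was 553 ± 17.5 FPKM in MKO and 1061 ± 40.6 FPKM in COM (SD, n = 3 each), or 52.2% of the COM level. The 3 MKO sums were 552, 572 and 537 FPKM and the 3 COM sums 1083, 1085 and 1014 FPKM. Nearly all of it was Pfkm in both groups. The Pfkm share was 98.68, 98.84 and 98.07% in MKO, against 99.54, 99.68 and 99.52% in COM. The Pfkl share was 0.825, 0.593 and 0.767% in MKO, against 0.188, 0.134 and 0.132% in COM. Shares of Pfkp were 0.494, 0.563 and 1.16% in MKO, against 0.272, 0.188 and 0.352% in COM, and its mean difference of 0.468 percentage points became 0.258 without MKO library 3. Shares are taken within a library, so they do not depend on scaling between libraries. The sum and the 3 shares did not overlap between the groups, and each exact two-sided permutation test gave p = 0.1, the smallest that 3 libraries against 3 allow. A further 10 sums, shares and ratios below gave the same p, and adjustment over all 14 left it at 0.1.

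Of the Pfkfb enzymes, Pfkfb3 changed most. The inducible form measured 9.10, 9.02 and 7.94 FPKM in MKO, against 57.7, 58.6 and 52.5 FPKM in COM. No MKO library came near a COM library: the means were 8.68 ± 0.647 FPKM in MKO and 56.3 ± 3.33 FPKM in COM (SD, n = 3 each), 6.48-fold lower in MKO. The log2 change was -2.68 (SE 0.095, limma adjusted p = 8.96e-07). Its fragments numbered 177 to 414 in the MKO libraries and 2789 to 4287 in the COM libraries. The promoter window of this gene printed above holds CACGTG, and its other window does not. The printed window of Pfkfb2, which was higher in MKO, holds the motif too. Any part of the motif in these changes was not tested.

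Pfkfb1, the liver and muscle form, measured 18.0, 22.7 and 19.3 FPKM in MKO, against 32.0, 33.7 and 29.8 FPKM in COM. It fell to 62.9% of the COM level (20.0 ± 2.42 FPKM in MKO and 31.8 ± 1.95 FPKM in COM, SD, n = 3 each), with a log2 change of -0.67 (SE 0.11, limma adjusted p = 0.00204). Pfkfb4 measured 8.99, 10.2 and 9.24 FPKM in MKO, against 16.9, 16.4 and 15.5 FPKM in COM. It fell to 58.4% of the COM level (9.48 ± 0.650 FPKM in MKO and 16.2 ± 0.716 FPKM in COM, SD, n = 3 each), with a log2 change of -0.77 (SE 0.10, limma adjusted p = 7.35e-04). For both genes every MKO library lay below every COM library, and their falls were smaller than that of Pfkfb3.

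Pfkfb2, the cardiac form, went the other way. It measured 4.19, 5.001 and 5.12 FPKM in MKO, against 2.07, 2.08 and 1.51 FPKM in COM. All MKO libraries were above all COM libraries, at 4.77 ± 0.505 FPKM in MKO and 1.89 ± 0.329 FPKM in COM (SD, n = 3 each), a 2.53-fold difference. The log2 change was 1.30 (SE 0.18, limma adjusted p = 9.98e-04), or 1.095 after subtraction of the all-gene median. Between 94 and 300 estimated fragments per library were assigned to it. A predicted gene, Gm29427, overlaps its exons on the same strand over 1262 bases, and 25.0% of its 50-base stretches also occur in Gm29427 or Yod1, so the assignment of reads in that stretch is uncertain. No values were listed under the symbol Gm29427. Yod1 measured 0.256 ± 0.082 FPKM in MKO and 0.140 ± 0.021 FPKM in COM (SD, n = 3 each). The 4 Pfkfb genes share no 50-base stretch with one another or with the other 4 genes.

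Together the 4 Pfkfb mRNAs summed to 43.0 ± 3.52 FPKM in MKO and 106.2 ± 6.17 FPKM in COM (SD, n = 3 each), 40.4% of the COM level, and their composition differed. Pfkfb3 made up 22.6, 19.2 and 19.1% of the sum in MKO, against 53.1, 52.9 and 52.9% in COM. Pfkfb1 made up 44.7, 48.4 and 46.4% in MKO, against 29.5, 30.4 and 30.0% in COM. The share of Pfkfb2 averaged 11.1 ± 1.03% in MKO and 1.77 ± 0.217% in COM, and that of Pfkfb4 22.1 ± 0.285% in MKO and 15.3 ± 0.431% in COM (SD, n = 3 each). None of these shares overlapped between the groups (exact two-sided permutation p = 0.1 each). On the scaled count columns, which are not per length, the mean difference in share was 10.6 percentage points for Pfkfb1 and 20.2 for Pfkfb2, against 16.6 and 9.35 on FPKM. In COM the order of levels was Pfkfb3, Pfkfb1, Pfkfb4 and Pfkfb2, with no overlap between neighbours. In MKO it was Pfkfb1, Pfkfb4, Pfkfb3 and Pfkfb2, and the neighbours Pfkfb4 and Pfkfb3 overlapped, at 8.99 to 10.2 FPKM and 7.94 to 9.10 FPKM.

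**Figure D2:**
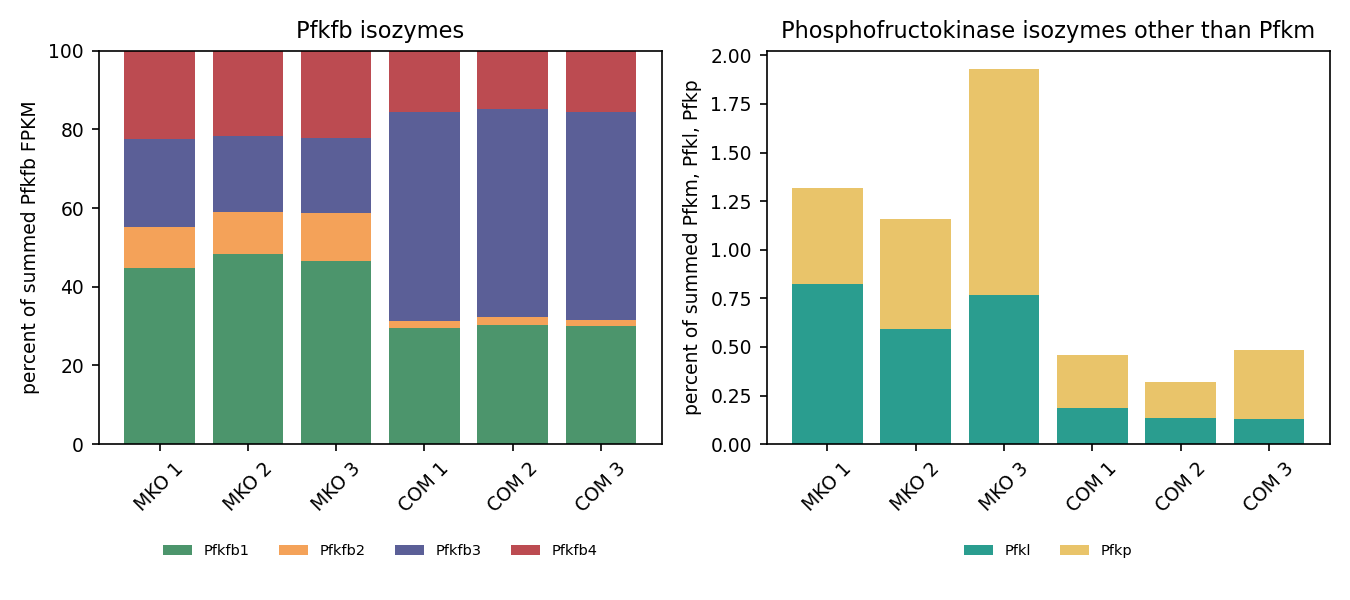
Left, the share of each Pfkfb mRNA in the summed Pfkfb FPKM of each library; right, the shares of Pfkl and Pfkp in the summed phosphofructokinase FPKM, on an axis that ends near 2% because Pfkm makes up the rest; MKO libraries stand left of COM libraries. Pfkfb3 takes 19.1 to 22.6% in MKO and 52.9 to 53.1% in COM, and Pfkl takes 0.593 to 0.825% in MKO and 0.132 to 0.188% in COM.

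Fbp2, the enzyme of the reverse step, had the largest fall of the 8 genes, with Pfkfb3 next. It measured 3.97, 5.56 and 4.62 FPKM in MKO, against 35.1, 40.8 and 36.3 FPKM in COM. The MKO libraries lay far below the COM libraries, at 4.71 ± 0.799 FPKM in MKO and 37.4 ± 3.01 FPKM in COM (SD, n = 3 each), 7.93-fold lower in MKO. The log2 change was -2.97 (SE 0.14, limma adjusted p = 2.79e-06). Estimated fragments were 19, 66 and 43 in the MKO libraries and 620, 741 and 478 in the COM libraries, so the MKO level rests on few fragments, while every COM library held many more. The gene shares no 50-base stretch with any other gene, and its scaled counts per FPKM varied little, between 12.4 and 12.6. Its liver counterpart Fbp1, the gluconeogenic form, did not pass the filter, at 0, 0.406 and 0.280 FPKM in MKO and 0, 0.0485 and 0 FPKM in COM. Of the hepatocyte markers only 2 were tested, and 1 of them was called lower, where 10.1% of all tested genes fell. It was Alb, at 0.763 ± 0.337 FPKM in MKO and 3.53 ± 0.278 FPKM in COM (SD, n = 3 each). The list summed to 0.666 to 1.62 FPKM in MKO and 6.46 to 6.58 FPKM in COM. The part of these markers' cells in any of these changes was not tested.

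Ratios within a library show whether one gene changed more than another without any scaling. The log2 ratio of Fbp2 to Pfkm was -7.10, -6.67 and -6.83 in MKO, against -4.94, -4.73 and -4.80 in COM. Pfkm mRNA thus stood 117 times above Fbp2 in MKO and 28.3 times above it in COM, a 4.13-fold shift. The log2 ratio of Pfkfb3 to Pfkm was -5.97 ± 0.074 in MKO and -4.23 ± 0.031 in COM (SD, n = 3 each), a 3.35-fold shift, so Fbp2 and Pfkfb3 were both reduced by more than Pfkm. Pfkfb3 to Pfkfb1 was -1.201 ± 0.188 in MKO and 0.82 ± 0.026 in COM, a change of sign, since Pfkfb1 was the more abundant in MKO and Pfkfb3 in COM. Pfkl to Pfkm was -7.09 ± 0.253 in MKO and -9.38 ± 0.291 in COM, a 4.89-fold shift. For Pfkp to Pfkm the values were -7.17 ± 0.669 in MKO and -8.57 ± 0.457 in COM, a 2.65-fold shift, although Pfkp itself was not called. All 5 ratios were free of overlap between the groups (exact two-sided permutation p = 0.1 each).

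**Figure D3:**
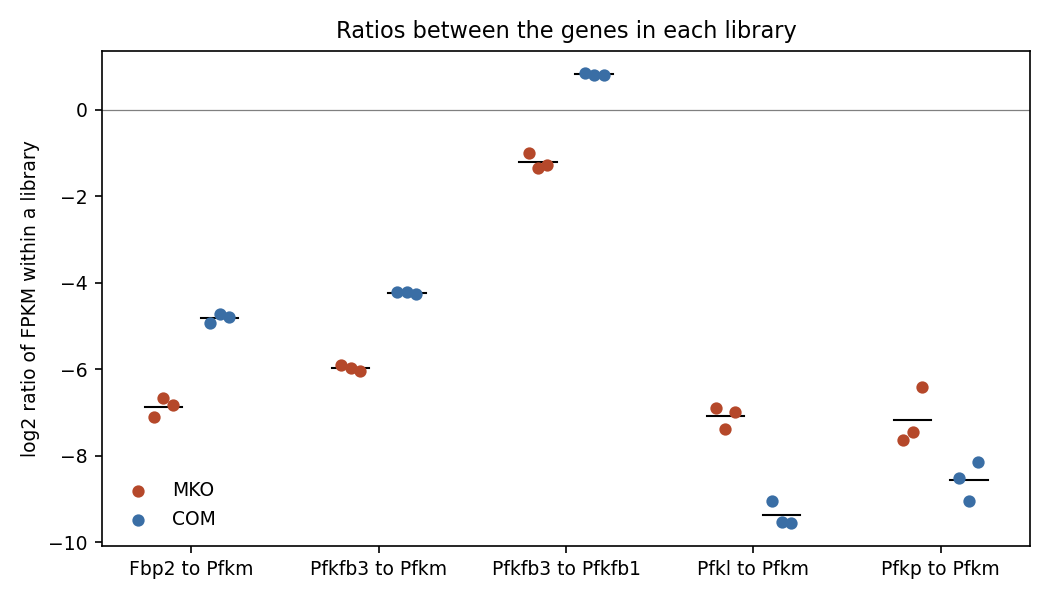
Log2 ratios of FPKM between pairs of the genes within each library, with 1 point per library, a line at the group mean (n = 3 each), MKO left of COM in each pair, and a grey line where both genes are equal. The ratios of Fbp2 and Pfkfb3 to Pfkm are lower in MKO, those of Pfkl and Pfkp to Pfkm are higher, and Pfkfb3 to Pfkfb1 averages -1.201 in MKO and 0.82 in COM.

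Across all 8 genes, the order of levels differed between the groups. In MKO it was Pfkm, Pfkfb1, Pfkfb4, Pfkfb3, Pfkfb2, Fbp2, Pfkp and Pfkl, where Pfkfb4 and Pfkfb3, and each neighbouring pair of the last 4, overlapped. In COM it was Pfkm, Pfkfb3, Fbp2, Pfkfb1, Pfkfb4, Pfkp, Pfkfb2 and Pfkl, where Pfkp and Pfkfb2, and Pfkfb2 and Pfkl, overlapped. Fbp2 ranked 3 of 8 in COM and was among the 4 lowest in MKO.

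The genes with the most similar pattern were sought among 5803 tested genes that averaged at least 5 FPKM, with predicted genes and the 8 genes left out, as the root mean square distance between log2 values centred on each gene's own mean over the 6 libraries. Nearest to Pfkm was Slc2a4, the insulin-responsive glucose transporter, at a distance of 0.014, with 111.7 ± 4.17 FPKM in MKO and 219 ± 10.3 FPKM in COM (SD, n = 3 each). Mybpc2, the fast form of myosin-binding protein C, came next at 0.023, and Cbfb, a partner of Runx factors, at 0.036. For Pfkfb3 the nearest were Ctxn3, a small membrane protein of the cortexin family, at 0.086, Pla2g7, the platelet-activating factor acetylhydrolase of plasma, at 0.19, and Lrrc38, an auxiliary subunit of potassium channels, at 0.22. Ctxn3 measured 4.77 ± 0.207 FPKM in MKO and 29.0 ± 0.748 FPKM in COM (SD, n = 3 each). It was also the nearest to Fbp2, at 0.26, ahead of the corepressor Hr at 0.29 and the Golgi membrane protein Golm1 at 0.32.

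Of the other glycolytic enzymes, 10 of 17 tested fell and 3 rose, where 10.1% of all tested genes fell and 24.5% rose. After quantile normalization 7 fell and 4 rose. The list has 19 genes, and its median log2 change was -0.64, against 0.21 over all tested genes. Next after phosphofructokinase, aldolase A (Aldoa) measured 3970 ± 195 FPKM in MKO and 11160 ± 381 FPKM in COM, triose phosphate isomerase (Tpi1) 979 ± 28.5 FPKM in MKO and 1676 ± 33.1 FPKM in COM, and muscle enolase (Eno3) 1536 ± 63.2 FPKM in MKO and 3550 ± 335 FPKM in COM (SD, n = 3 each). Their log2 changes were -1.49, -0.78 and -1.21 (limma adjusted p = 8.7e-07, 1.36e-05 and 1.21e-05), and those of Aldoa and Eno3 shrank to -0.62 and -0.53 after quantile normalization and were not called (adjusted p = 0.12 and 0.0621). Lactate dehydrogenase A (Ldha) fell by 1.36 on the log2 scale (limma adjusted p = 1.56e-06). The 3 that rose were the hexokinase Hk1, the mutase Pgam1 and the dehydrogenase Ldhb, forms that are not the main ones of fast muscle. Hk1 measured 6.65 ± 0.582 FPKM in MKO and 2.42 ± 0.475 FPKM in COM (SD, n = 3 each), with a log2 change of 1.44 (limma adjusted p = 4.25e-04), close in size to the rise of Pfkl. Ldhb had an adjusted p of 0.0927 under median-of-ratios scaling. Gapdh was not called, and COM library 1 stood at 580 FPKM, where the other COM libraries stood at 4194 and 4375 FPKM and the MKO libraries at 2113 to 2286 FPKM. Without COM library 1 it was called lower (log2 change -0.96, limma adjusted p = 4.87e-05).

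**Figure D4:**
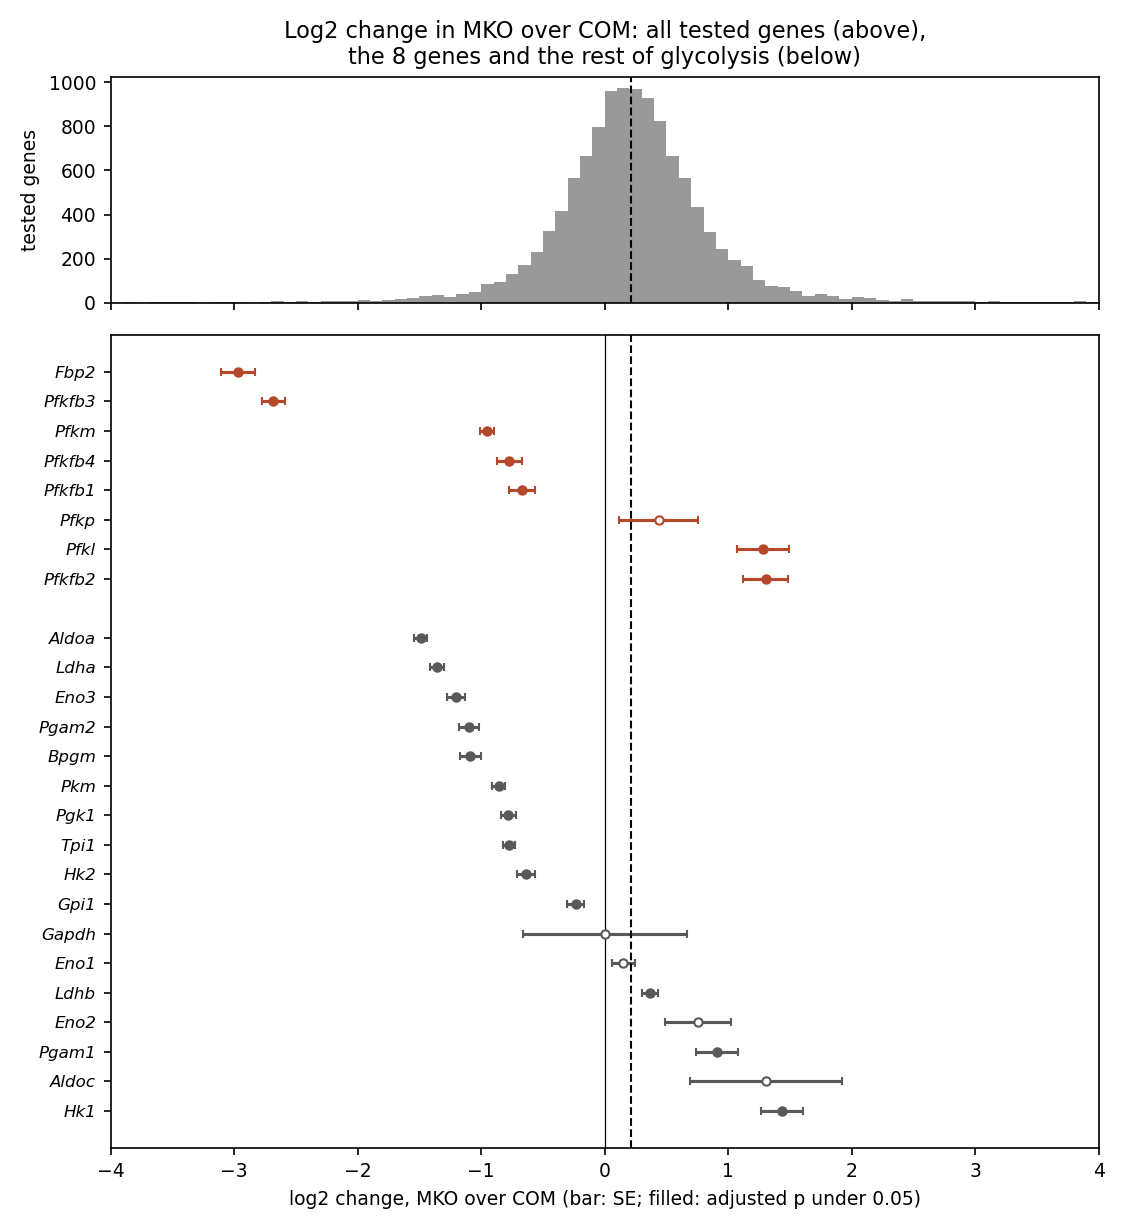
Above, the number of tested genes by log2 change, MKO over COM, within the plotted range; below, the log2 change of the 8 genes (red) and of the tested genes of the rest of glycolysis (grey), with bars for the SE and filled points where the limma adjusted p is under 0.05; the dashed line is the median of all tested genes, 0.21. Fbp2 at -2.97 and Pfkfb3 at -2.68 lie further to the left than any of the other glycolytic genes.

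Of 10 other enzymes of the fructose phosphates, 8 were tested, 2 fell and 0 rose, with a median log2 change of 0.03. The 25% called is near the 34.6% of all tested genes. The 2 were Aldoa and the isomerase Gpi1, which makes fructose 6-phosphate and measured 494 ± 34.9 FPKM in MKO and 582 ± 24.1 FPKM in COM (SD, n = 3 each). Its log2 change of -0.24 (limma adjusted p = 0.0253) was not called in 8 of the 16 alternatives at the same threshold. Taldo1, the transaldolase of the pentose phosphate pathway, measured 51.7 ± 1.67 FPKM in MKO and 44.2 ± 3.78 FPKM in COM (SD, n = 3 each) and was not called (limma adjusted p = 0.0673). Aldolase C (Aldoc) was not called either, at 2.48, 0.502 and 0.632 FPKM in MKO and 0.121, 0.477 and 0.489 FPKM in COM. Of 6 gluconeogenic genes, 4 were tested. Pck1, cytosolic phosphoenolpyruvate carboxykinase, rose (5.09 ± 0.319 FPKM in MKO and 1.39 ± 0.105 FPKM in COM, limma adjusted p = 7.35e-05), and Pcx, pyruvate carboxylase, fell (12.2 ± 0.744 FPKM in MKO and 18.9 ± 3.37 FPKM in COM, limma adjusted p = 0.0102), so Fbp2 and Pck1 moved in opposite directions. The mitochondrial carboxykinase Pck2 (0.802 ± 0.184 FPKM in MKO and 0.667 ± 0.035 FPKM in COM) and the glucose-6-phosphatase G6pc3 (33.7 ± 4.67 FPKM in MKO and 33.5 ± 1.76 FPKM in COM) were not called. The table also carries the pathway label of fructose and mannose metabolism, examined here after values had been seen. Without the 8 genes it holds 25 genes, of which 19 were tested, 3 rose and 4 fell, with a median log2 change of 0.05. Over all tested genes 24.5% rose and 10.1% fell.

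Kinases, ligase subunits and the hypoxia factor known to act on Pfkfb enzymes or their genes were split in direction. All 15 were tested, 5 rose and 3 fell, where 24.5% of all tested genes rose and 10.1% fell, and after median-of-ratios scaling 2 were raised and 5 lowered. The median log2 change was 0.43, against 0.21 over all tested genes. Of the 7 listed subunits of AMP-activated kinase, which phosphorylates Pfkfb2 and Pfkfb3, 3 fell, 2 rose and 2 were not called. Prkag3, the regulatory subunit of fast glycolytic fibres, measured 24.5 ± 3.27 FPKM in MKO and 60.2 ± 2.38 FPKM in COM (SD, n = 3 each, log2 change -1.30, limma adjusted p = 5.39e-05). Prkab2 measured 50.3 ± 3.97 FPKM in MKO and 96.1 ± 15.5 FPKM in COM, and the catalytic subunit Prkaa2 17.6 ± 0.554 FPKM in MKO and 25.4 ± 2.85 FPKM in COM (limma adjusted p = 8.17e-04 and 0.00589). Prkaca is the catalytic subunit of the cyclic AMP kinase that phosphorylates the liver form of Pfkfb1. It rose to 61.1 ± 5.49 FPKM in MKO, against 43.3 ± 0.551 FPKM in COM (SD, n = 3 each). Its log2 change was 0.49 (limma adjusted p = 0.00282). The other 4 that rose were Prkaa1 and Prkag2, which are the 2 raised subunits of AMP-activated kinase, and Rps6ka1 and Fzr1. Each of these 4 lost the call under quantile normalization, at adjusted p between 0.0661 and 0.243. Hif1a, the hypoxia factor that induces Pfkfb3 and Pfkfb4, was not called, at 5.23 ± 1.46 FPKM in MKO and 3.61 ± 0.566 FPKM in COM (SD, n = 3 each).

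Markers of fibre type and of some other cells moved in the same libraries, where 24.5% of all tested genes rose and 10.1% fell. Of 9 fast fibre markers, 8 fell and Myh1 rose, and their sum was 29500 to 31080 FPKM in MKO and 81430 to 85230 FPKM in COM, a larger relative fall than that of Pfkm and a smaller one than those of Pfkfb3 and Fbp2. After quantile normalization 5 of the 8 still fell, and Tnnc2 (log2 change -0.26), Mylpf (-0.48) and Atp2a1 (-0.61) were not called (adjusted p = 0.102, 0.0948 and 0.0762) and had smaller falls than Pfkm (-0.89). Of 8 slow and oxidative fibre markers, 2 rose and 4 fell, with sums of 893 to 903 FPKM in MKO and 921 to 954 FPKM in COM. These close sums hide opposed changes. Myh2 rose from 148 ± 9.77 FPKM in COM to 232 ± 2.47 FPKM in MKO (SD, n = 3 each), and Atp2a2 rose too. Tnnt1, Tnnc1, Tnni1 and Myl3 fell to 52.0, 61.6, 66.2 and 73.4% of the COM level. Adipocyte markers rose in 6 of 7 tested (449 to 513 FPKM in MKO and 403 to 417 FPKM in COM), fibroblast markers rose in 5 of 8 and fell in 1 (550 to 633 FPKM in MKO and 495 to 523 FPKM in COM), and Schwann cell markers rose in 4 of 8 (116 to 127 FPKM in MKO and 77.1 to 85.1 FPKM in COM). Macrophage markers rose in 2 of 7 (102 to 124 FPKM in MKO and 89.1 to 97.1 FPKM in COM). This 28.6% is near the 24.5% of all tested genes that rose. Endothelial markers were called in 0 of 8 (75.0 to 84.5 FPKM in MKO and 76.6 to 82.0 FPKM in COM), and 2 of 4 tested erythroid markers fell (146 to 177 FPKM in MKO and 207 to 255 FPKM in COM). Some marker calls were lost in at least 1 alternative at the same threshold, namely Atp2a2 among slow fibre markers, Laptm5 among leukocyte markers, Pparg among adipocyte markers, Pdgfra, Col1a2 and Col3a1 among fibroblast markers, S100b among Schwann cell markers, Hbb-bt among erythroid markers and both macrophage calls, C1qa and C1qc. Whether any of these shifts contributed to the changes of the 8 genes was not tested.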

How the data were processed

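RNA from 6 quadriceps samples, 3 MKO and 3 COM, was depleted of ribosomal RNA and made into stranded libraries, per the labels' protocols. Per the submitters' processing notes, cutadapt 1.9.3, HISAT2 2.0.4, Cufflinks and Cuffdiff were used with mm10. No setting of these tools was stated. The authors deposited 1 table of 22564 rows with an FPKM and a count-like column per library. The deposited count columns were treated as a scaled signal: within a library 92.6 to 94.2% of values were whole multiples of 1 constant (tolerance 0.1), and dividing by it gave the estimated fragments. Rows of 1 symbol were summed. limma 3.58.1 in R 4.3.3 compared MKO with COM on log2(FPKM + 0.1), with a mean-variance trend, for genes averaging at least 0.5 FPKM. Sums, shares and ratios were tested by exact permutation. The fit was tested on simulated data. The 8 genes, the gene lists, the markers and the naming rule were chosen with earlier results of these data known. The text names the 8 genes, Fbxw7, the nearest patterns, the 4 smallest p of each of the 4 pathway lists, the genes that go against its direction, and markers. Hif1a, Gapdh and Pitrm1 were named after their values were seen. Positions came from GENCODE M21 and promoter windows from RefSeq GRCm38.p6. The alternatives were other pseudocounts, filters, scalings and thresholds, the signal columns, a replicate block and the omission of each library.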

Additional observations from a re-analysis of the deposited data

How the results depend on the processing

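All 14 sums, shares and ratios and the 7 called genes kept their direction in every alternative run, and Pfkp was never called (adjusted p 0.151 to 0.819). Over all genes, where 2860 rose and 1177 fell, median-of-ratios scaling gave 1724 raised and 2018 lowered, 1715 rose under quantile normalization, and 1460 rose and 708 fell at an adjusted p under 0.01. Of the regulators of Pfkfb enzymes, median-of-ratios scaling called 2 higher and 5 lower, 2 rose under quantile normalization, 1 rose at the threshold of 0.01, and 3 to 5 rose when single libraries were left out. Of the fructose phosphate enzymes, 1 fell without the filter, without the trend, at the threshold of 0.01 and on the signal columns scaled to equal totals; under quantile normalization 0 fell and 1 rose; 1 rose on the signal columns as deposited, an alternative chosen after seeing the data; and 1 to 2 fell when single libraries were left out. No gluconeogenic gene fell at the threshold of 0.01 (0 of 4). The cause of these shifts was not tested. The signal columns are not per length, and on them the mean differences in the Pfkfb1 and Pfkfb2 shares moved by over 1.5 times, as given with the shares. The labels do not say whether replicate numbers pair the libraries. Deviations from the group means correlated at -0.066, 0.197 and 0.176 between same-numbered libraries. Between different-numbered libraries they correlated at -0.291 to 0.183, so these values cannot decide it. With a replicate block 2655 genes rose and 1173 fell, the 8 genes kept their calls (2 rose and 5 fell), and the ratio of Fbp2 to Pfkm kept its difference of -2.05 (exact sign-flip p = 0.25, the smallest possible). Depth limits Fbp2, Pfkl and Pfkp most, with as few as 19, 51 and 28 estimated fragments in a library.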
